A study of Homo sapiens with 12 samples.

Results

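The small nucleolar RNA (snoRNA) host genes and the other long noncoding RNA genes of 2 carcinoma lines treated with myricone C were described here. Members were chosen by a rule on the gene symbol, and earlier results of these data were known when it was set. The snoRNA hosts were the SNHG series with GAS5 and ZFAS1. The other noncoding genes were the LINC series, genes ending in -AS1 (antisense RNAs) or -DT (divergent transcripts), NEAT1 and MALAT1. PHLDA1-AS1 was left out. The rule found 489 of the 12372 genes listed for either line, of which 336 of 11070 were listed for 23132/87 and 416 of 11554 for SW48. Of these, 263 were listed for both lines, 73 only for 23132/87 and 153 only for SW48. The snoRNA hosts numbered 22 in 23132/87 and 23 in SW48, where SNHG33 was added. The 314 other noncoding genes of 23132/87 comprised 65 LINC, 179 -AS1 and 68 -DT genes with NEAT1 and MALAT1, and the 393 of SW48 comprised 87, 235 and 69 with the same 2 genes. The symbol did not always fit the annotation: 6 members, SNHG32 among them, are protein-coding in GENCODE 29.

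Gene expression was measured by mRNA sequencing in 23132/87, an established gastric adenocarcinoma line, and SW48, an established colorectal adenocarcinoma line, both of genotype WT per the labels. For 48 h the cells were exposed either to 10 µM myricone C, a neolignan from nutmeg, or to 0.1% DMSO alone (vehicle), and 3 biological replicates of each of the 4 groups gave 12 libraries. A single dose, a single time and a single line per tumour type were sampled. The study asked how the compound acts on these cells, and the comparison made here is myricone C against vehicle within each line.

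A snoRNA guides the chemical modification of ribosomal and spliceosomal RNA, and most human snoRNAs are cut from the introns of a host transcript during splicing. The spliced exons of many hosts code for no known protein and are short-lived, since ribosomes that meet early stop codons in them hand the RNA to nonsense-mediated decay. Many hosts begin with a run of pyrimidines at the transcript start, the TOP element shared with ribosomal protein genes, through which growth signals control translation. NEAT1 is the RNA scaffold of paraspeckles and MALAT1 is a nuclear RNA of splicing speckles. Antisense and divergent RNAs start from or run across a protein-coding gene on the opposite strand.

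The sequences around the transcript starts of the hosts are shown because a run of pyrimidines there is known in many of them. A window of 40 bases from 20 before to 20 after the annotated start (RefSeq, GRCh38.p14) was available for 20 of the 23 hosts. The letters CTTTC or CTTTT on the transcript's strand were found in 11 of these 20 hosts (55.0%), against 12.2% of the 27305 genes with such a window and 29 of the 346 other noncoding members with one (8.38%). They could lie anywhere in the window, before the start too. A gene counted if any of its windows held them, as for SNHG33, which also had a window without them. On the opposite strand the same letters stood in 5.0% of the hosts and 9.07% of all genes. A match is only a match of letters, and a window without them can still hold another run of pyrimidines, as that of SNHG1 does. The GAS5 window lies outside the GENCODE 29 span of GAS5 (chr1:173863900-173868882), so it does not cover the start given there. Windows of 5 hosts that rose in both lines are printed first, then 2 that hold the letters and fell in SW48. The last 2 are windows without the letters, of hosts that rose in both lines. Capitals mark CTTTC or CTTTT, and the transcript starts at the base after the first 20.
SNHG32 (chr6:31834896-31834935, + strand): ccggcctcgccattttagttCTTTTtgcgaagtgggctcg
ZFAS1 (chr20:49278622-49278661, + strand): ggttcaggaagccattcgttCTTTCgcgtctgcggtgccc
SNHG5 (chr6:85678714-85678753, - strand): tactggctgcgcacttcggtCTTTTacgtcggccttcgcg
SNHG29 (chr17:16438967-16439006, + strand): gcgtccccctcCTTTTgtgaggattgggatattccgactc
SNHG8 (chr4:118278742-118278781, + strand): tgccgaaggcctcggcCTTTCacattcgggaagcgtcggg
SNHG19 (chr16:2155339-2155378, - strand): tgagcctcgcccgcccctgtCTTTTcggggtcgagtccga
SNHG21 (chr15:82750544-82750583, + strand): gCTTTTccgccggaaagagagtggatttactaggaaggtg
GAS5 (chr1:173869026-173869065, - strand): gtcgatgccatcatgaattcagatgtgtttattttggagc
SNHG1 (chr11:62855866-62855905, - strand): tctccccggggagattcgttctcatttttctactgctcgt

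The letters begin at the first transcribed base in SNHG32, ZFAS1 and SNHG5, which rose in both lines, and also in SNHG19, which fell in SW48. A second set of letters searched over 300 bases around the start, TGATGNAA on either strand, occurred in 0 of the 20 hosts and in 4.46% of all genes. With so few hosts and so low a share, this cannot show that the letters are missing from hosts. In 23132/87, 7 of the 10 listed hosts with CTTTC or CTTTT rose and none fell (median log2 change 1.18), and 5 of the 9 without rose and 1 fell (median 0.58). In SW48, 5 of 11 with the letters rose and 2 fell (median 0.64), and 4 of 9 without rose (median 0.01). The 9 without include GAS5, which rose in both lines, and SNHG3, which did not pass the test in either. The windows of GAS5 and SNHG3 lie outside their GENCODE 29 spans, so the starts given there were not searched. Hosts that rose were thus found both with and without the letters in the windows searched, and the difference between them was not tested.

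The snoRNAs inside the hosts were located as well, because the hosts are named for them. Of the 22 hosts placed in GENCODE 29, 21 held at least 1 annotated snoRNA or small Cajal body RNA within their span, 49 in all, and GAS5 held none in that annotation. The lack of such an entry does not show that GAS5 hosts no snoRNA. Of the 49, 16 overlap no annotated exon of their host; the others lie at least in part within an exon of some annotated host transcript. Among the 452 other noncoding members placed there, 6 held one, EPB41L4A-AS1 with SNORA13 among them. A mature snoRNA carries no poly(A) tail, and its level is not reported by these mRNA libraries. A box C/D snoRNA of 4 hosts that rose in both lines is printed from GRCh38, with the core letters of box C (TGATGA) and those of box D (CTGA) in capitals.
SNORD48 in SNHG32 (chr6:31835263-31835326, + strand): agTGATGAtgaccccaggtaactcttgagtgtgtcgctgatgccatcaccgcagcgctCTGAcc
SNORD49A in SNHG29 (chr17:16440036-16440106, + strand): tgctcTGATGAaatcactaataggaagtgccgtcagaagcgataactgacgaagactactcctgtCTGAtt
SNORD50B in SNHG5 (chr6:85677589-85677658, - strand): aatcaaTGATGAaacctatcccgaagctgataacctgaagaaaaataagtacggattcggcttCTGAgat
SNORD12C in ZFAS1 (chr20:49278940-49279028, + strand): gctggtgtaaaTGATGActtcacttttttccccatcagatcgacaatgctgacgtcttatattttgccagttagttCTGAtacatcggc

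Values are the deposited expression signal, which is scaled to the library; its exact unit is not given in the sources used here, and levels are therefore compared between libraries of a line and not between genes. Changes are log2(signal + 1) of myricone C minus vehicle with limma's moderated standard error (SE), and a gene was said to rise or fall where the Benjamini-Hochberg adjusted p over all genes of that line was under 0.05. Groups that do not overlap are pointed out below for genes that passed this test. That is a description and adds nothing to the test, and its share over all genes was not counted. No gene under a signal of 1 in any library of its line is listed, so RNAs switched on or off by the compound are not among the members. Read depth is unknown, and the listed values of a library summed to between 464037 and 536594. The myricone C replicate 1 of SW48 stood apart: it lay at 14.4 on the first principal component of that line against 36.5 and 29.1 for the other myricone C libraries, and 7SL and small nuclear RNA genes took 5.26% of its summed signal against 0.049% to 0.204% in the other 5 SW48 libraries. All 6 epithelial markers were listed in both lines. Of the gastric markers 2 of 7 (TFF1, GATA6) were listed in 23132/87, and of the colorectal markers 3 of 6 in each line. Leukocyte and mesenchymal markers were not listed in SW48 and were represented by CD68 and COL1A1 in 23132/87. Some markers moved with treatment. In 23132/87 CD68 (1.22) and CDH1 (0.56) rose. KRT8 (-1.48), KRT18 (-1.60), KRT19 (-1.22), EPCAM (-0.41), VIL1 (-1.54) and TFF1 (-0.85) fell there. In SW48 KRT8 (1.19), KRT18 (1.57), KRT19 (0.74) and CDH1 (0.61) rose, and CDX2 (-1.47) and LGR5 (-0.76) fell. The other listed markers did not pass the test. Their part in the changes of the noncoding genes was not tested.

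Most snoRNA hosts rose with myricone C in 23132/87. Of 22 hosts, 14 rose (63.6%), 1 fell and 7 did not pass the test, against 23.3% of all genes called higher and 23.2% called lower. The median log2 change of the hosts was 0.67 and that of all 11070 genes 0.01. SNHG32, GAS5, SNHG8, SNHG29, ZFAS1, SNHG5, SNHG12 and SNHG1 each changed by more than 1 on the log2 scale. The 3 myricone C libraries gave similar host medians, 0.73, 0.53 and 0.78 above the vehicle mean.

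SNHG32 (chr6:31834608-31839766, + strand), the host of SNORD48 and SNORD52, had signals of 53.0, 54.4 and 54.5 in the vehicle libraries and 204, 213 and 209 in the myricone C libraries. The replicates were tight and the groups far apart, with a log2 change of 1.93 ± 0.08 (SE, n = 3 per group, limma adjusted p = 1.23e-06). GAS5 (chr1:173863900-173868882, - strand), first isolated from growth-arrested cells, moved from 236, 203 and 234 to 884, 837 and 826 (log2 change 1.92 ± 0.10, limma adjusted p = 2.59e-06). Its growth-arrest name is background, and cell growth was not measured in these files. SNHG8 (chr4:118278709-118279823, + strand), the host of SNORA24, read 20.6, 23.7 and 31.9 with vehicle and 89.7, 80.6 and 81.7 with myricone C, a log2 change of 1.71 ± 0.14 (limma adjusted p = 1.83e-05). For all 3 genes every myricone C library lay above every vehicle library.

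SNHG29 (chr17:16438822-16478678, + strand), which carries SNORD49A, SNORD49B and SNORD65, had the signals 146, 153 and 158 with vehicle and 353, 397 and 443 with myricone C. The change was 1.37 ± 0.11 on the log2 scale (limma adjusted p = 1.13e-05). ZFAS1 (chr20:49278178-49295738, + strand), an antisense neighbour of ZNFX1 that hosts the SNORD12 family, rose from 67.6, 59.2 and 61.1 to 159, 146 and 185, by 1.37 ± 0.11 (limma adjusted p = 1.27e-05). These 2 hosts changed by the same amount within their errors. SNHG5 (chr6:85660950-85678748, - strand), the host of SNORD50B, read 25.2, 18.2 and 17.7 with vehicle against 51.0, 47.1 and 56.2, a change of 1.31 ± 0.14 (limma adjusted p = 7.35e-05). The groups did not overlap for any of the 3.

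SNHG12 (chr1:28578538-28583132, - strand) had 23.2, 22.8 and 13.6 in the vehicle libraries and 42.9, 42.8 and 37.6 in the myricone C libraries (log2 change 1.05 ± 0.18, limma adjusted p = 0.00119). The third vehicle library was the low one and carried most of the spread. SNHG1 (chr11:62851988-62855914, - strand), a host of 7 annotated small RNAs, read 39.8, 41.0 and 45.0 against 95.8, 83.9 and 82.4 (1.04 ± 0.10, limma adjusted p = 3.9e-05). Smaller rises were seen for SNHG17 (0.80), SNHG7 (0.76), SNHG15 (0.76), SNHG20 (0.58), SNHG6 (0.42) and SNHG16 (0.40). The calls of SNHG20 and SNHG6 rested on single libraries: SNHG20 was no longer called without vehicle replicate 2 (0.48), nor SNHG6 without vehicle replicate 1 (0.38) or myricone C replicate 3 (0.31).

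SNHG30 (chr17:35568109-35574843, + strand), the host of SNORD7, was the host that fell in 23132/87, from 3.77, 2.89 and 3.31 to 1.82, 1.45 and 2.37 (log2 change -0.59 ± 0.16, limma adjusted p = 0.0109). It lay close to the floor of 1, where adding 1 understates a change. SNHG21 (0.41), SNHG11 (0.25), SNHG19 (0.16), SNHG3 (-0.08), SNHG10 (-0.18), SNHG4 (-0.18) and SNHG9 (-0.26) did not pass the test. SNHG3 and SNHG4 host snoRNAs (SNORA73A and SNORA73B, SNORA74A and SNORA74D) just as the hosts that rose do, so the rise did not extend to every host.

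**Figure D1:**
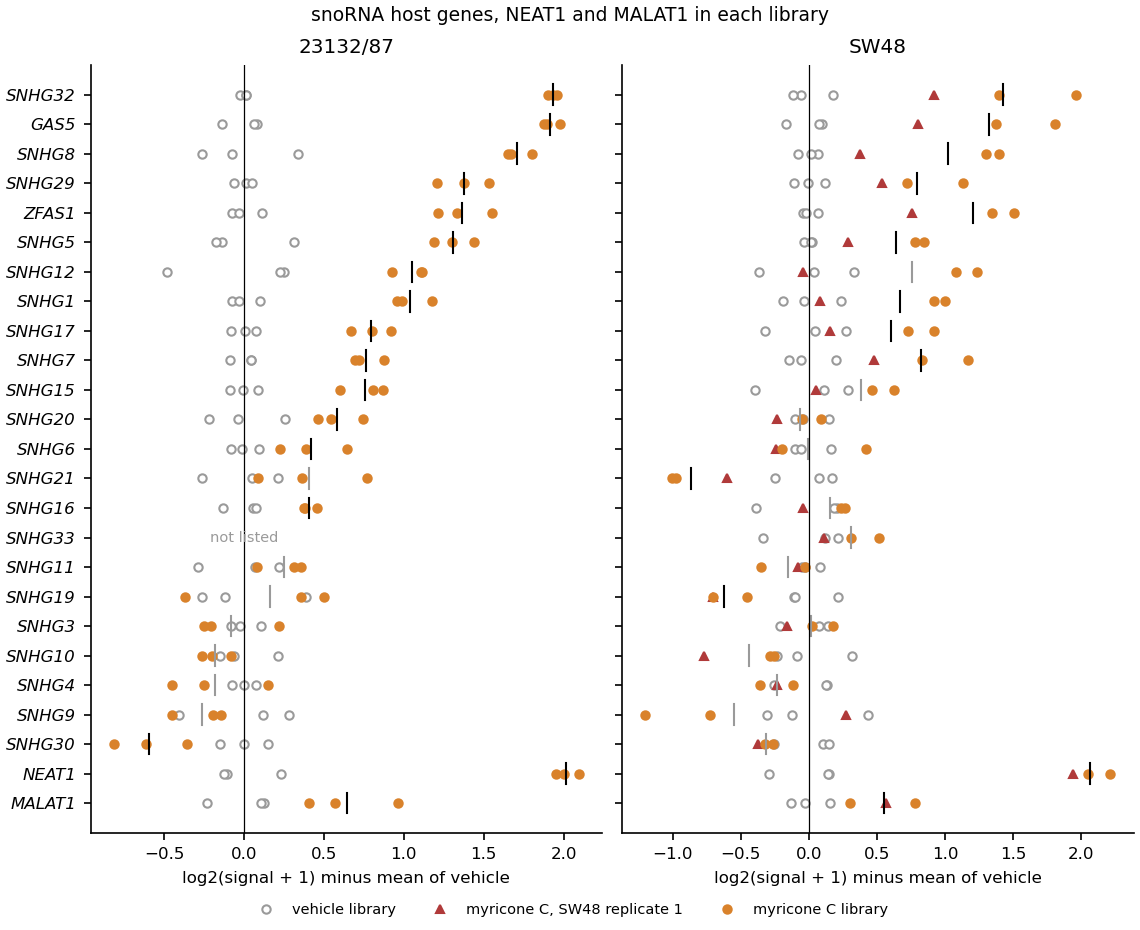
Log2(signal + 1) of each library minus the mean of the vehicle libraries of its line, for the snoRNA hosts, NEAT1 and MALAT1. Open circles are vehicle libraries, filled circles myricone C libraries, triangles the SW48 myricone C replicate 1, and vertical bars the mean of myricone C (black where adjusted p was under 0.05, grey otherwise). SNHG32, GAS5 and NEAT1 lie near 2 in all 3 myricone C libraries of 23132/87, and in SW48 the triangle is the lowest myricone C value of most hosts that rose.

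In SW48 fewer hosts passed the test. Of 23 hosts, 9 rose (39.1%) and 2 fell (8.7%), against 10.1% of all 11554 genes called higher and 19.2% called lower. The median log2 change of the hosts was 0.31 beside -0.08 for all genes. The 9 were SNHG32, GAS5, ZFAS1, SNHG8, SNHG7, SNHG29, SNHG1, SNHG5 and SNHG17. The host median of the SW48 myricone C replicate 1 was 0.05 above the vehicle mean, and those of replicates 2 and 3 were 0.31 and 0.51; the part of the small nuclear RNA share in this was not tested. Without that library 11 hosts rose and 3 fell.

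SNHG32 read 69.4, 81.8 and 66.6 with vehicle and 138, 192 and 285 with myricone C in SW48 (log2 change 1.43 ± 0.21, limma adjusted p = 0.000781). GAS5 went from 188, 225 and 222 to 368, 548 and 741 (1.33 ± 0.21, limma adjusted p = 0.000969). ZFAS1 went from 38.2, 41.5 and 38.8 to 67.5, 102 and 114 (1.20 ± 0.17, limma adjusted p = 0.000624). The treated groups lay clear of the vehicle groups for all 3, with replicate 1 the lowest treated value each time.

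SNHG8 had 51.1, 46.3 and 49.3 with vehicle and 63.6, 122 and 130 with myricone C, a change of 1.02 ± 0.22 (limma adjusted p = 0.0056). SNHG7, which holds the SNORA17 family, moved from 30.7, 25.5 and 23.9 to 37.5, 48.1 and 60.9 (0.83 ± 0.17, limma adjusted p = 0.00438). SNHG29 moved from 234, 273 and 251 to 366, 417 and 554 (0.80 ± 0.15, limma adjusted p = 0.00257). Replicate 1 of SNHG8 was 63.6, closer to the vehicle libraries than to the other treated ones, yet the groups did not overlap. SNHG5 rose by 0.64 ± 0.14 (limma adjusted p = 0.0071), from 90.4, 94.0 and 93.8 to 114, 160 and 167.

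SNHG1 in SW48 had 57.1, 51.2 and 69.1 against 62.2, 112 and 119, so its groups overlapped, and its change was 0.67 ± 0.22 (limma adjusted p = 0.0377). The call was lost without vehicle replicate 1 (0.65), vehicle replicate 2 (0.57), myricone C replicate 2 (0.54) or myricone C replicate 3 (0.50). SNHG17, with 32.3, 21.1 and 27.5 against 29.7, 44.7 and 51.2, changed by 0.60 ± 0.20 (limma adjusted p = 0.0437). Its call was lost without vehicle replicate 2 (0.44), vehicle replicate 3 (0.63), myricone C replicate 2 (0.54) or myricone C replicate 3 (0.44). SNHG12 did not pass the test (0.76 ± 0.29, limma adjusted p = 0.0693): its treated values were 34.9, 77.1 and 85.8 against 45.5, 27.6 and 36.8. Without myricone C replicate 1, SNHG12 (1.16) and SNHG15 (0.54) were called higher and SNHG9 (-0.97) lower.

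The hosts that fell in SW48 were SNHG21 and SNHG19. SNHG21 (chr15:82750564-82757206, + strand), the host of SCARNA15, read 8.08, 11.1 and 10.4 with vehicle and 6.09, 4.46 and 4.35 with myricone C, a change of -0.86 ± 0.17 (limma adjusted p = 0.00303). SNHG19 (chr16:2154797-2155358, - strand), the host of SNORD60, read 62.8, 78.9 and 63.0 against 41.2, 41.2 and 49.3 (-0.62 ± 0.13, limma adjusted p = 0.00481). Neither pair of groups overlapped. The other hosts of SW48 that did not pass the test were SNHG15 (0.38), SNHG33 (0.31), SNHG16 (0.15), SNHG3 (0.01), SNHG6 (-0.00), SNHG20 (-0.07), SNHG11 (-0.15), SNHG4 (-0.24), SNHG30 (-0.32), SNHG10 (-0.44) and SNHG9 (-0.55).

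Among the other noncoding genes more rose than fell in 23132/87, and in SW48 neither direction prevailed. In 23132/87, 96 of 314 rose (30.6%) and 26 fell (8.28%), against 23.3% and 23.2% of all genes. The median log2 change of these 314 was 0.18. The LINC genes had 26 of 65 higher and 7 lower (median 0.20), the -AS1 genes 45 of 179 higher and 14 lower (median 0.13), and the -DT genes 23 of 68 higher and 5 lower (median 0.26). In SW48, 37 of 393 rose (9.41%) and 46 fell (11.7%), the median being -0.03: 12 and 11 of 87 LINC genes, 20 and 28 of 235 -AS1 genes, and 3 and 7 of 69 -DT genes. Which direction was the more frequent in SW48 depended on the scaling: 46 rose and 38 fell with quantile normalization, and 47 rose and 39 fell with median centring. The shares in SW48 lay near or under those of all genes (10.1% higher, 19.2% lower). Many of these genes lay near the floor of 1, where adding 1 understates a change: 36 of the 314 and 46 of the 393 had a mean vehicle signal of at least 10, as had 17 of the 22 hosts and 17 of the 23.

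**Figure D2:**
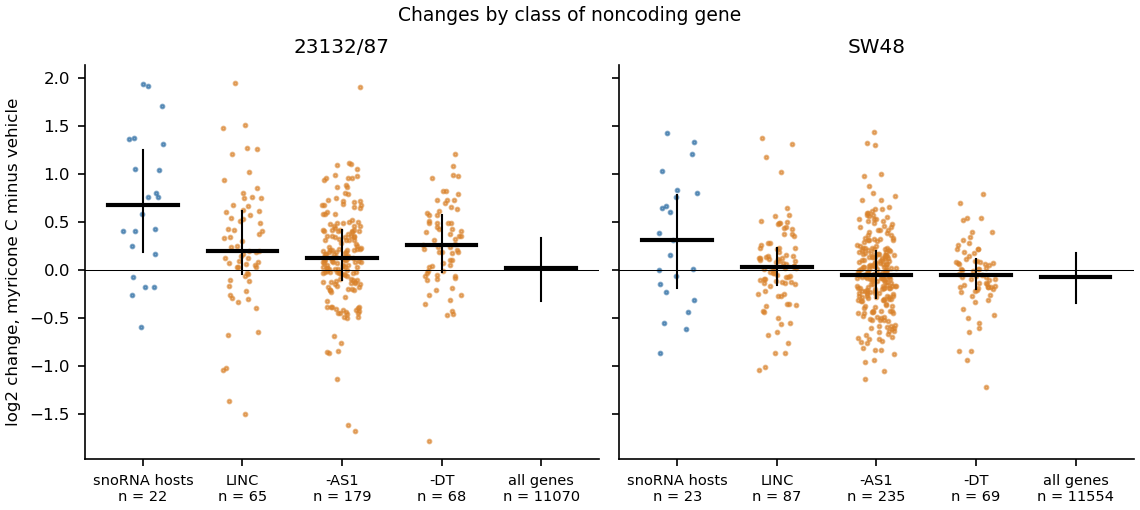
Log2 change with myricone C of each snoRNA host, LINC, -AS1 and -DT gene, by line; thick bars are medians and thin bars the range from the 25th to the 75th percentile, also for all genes of the line. The host median lies at 0.67 in 23132/87 and 0.31 in SW48, while the all-gene medians are 0.01 and -0.08.

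NEAT1 (chr11:65422774-65445540, + strand) rose by about the same amount in both lines. The signal is per gene, so isoforms of NEAT1 are not told apart. Its signals in 23132/87 were 220, 173 and 172 with vehicle and 804, 728 and 752 with myricone C, a log2 change of 2.02 ± 0.12 (limma adjusted p = 3.19e-06). In SW48 they were 541, 398 and 538 with vehicle and 1872, 2269 and 2023 with myricone C (2.07 ± 0.14, limma adjusted p = 1.25e-05). Myricone C replicate 1 of SW48 was again the lowest treated library, but lay far above the vehicle libraries. The SW48 change minus the 23132/87 change was 0.05 ± 0.19 (limma adjusted p = 0.888).

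MALAT1 (chr11:65497688-65506516, + strand), the neighbour of NEAT1, had signals near the floor: 4.50, 6.04 and 5.95 against 11.6, 7.57 and 8.60 in 23132/87 (log2 change 0.65 ± 0.17, limma adjusted p = 0.0105). In SW48 it read 3.94, 3.59 and 4.60 against 6.43, 7.62 and 5.21 (0.55 ± 0.16, limma adjusted p = 0.0251). The groups did not overlap in either line. How fully mRNA libraries capture this nuclear RNA was not measured. The low signals of MALAT1 therefore do not show that it is scarce in the cells. The SW48 call was lost without vehicle replicate 1 (0.54), vehicle replicate 2 (0.48) or myricone C replicate 2 (0.43).

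No gene of the paraspeckle or nuclear speckle protein lists rose in either line, and some fell. In 23132/87, 11 of 14 paraspeckle protein genes fell (median -0.55), and in SW48 6 of 14 fell (median -0.34), where 23.2% and 19.2% of all genes fell. SFPQ, a core RNA-binding protein of paraspeckles, fell from a mean signal of 92.0 ± 3.20 to 29.2 ± 1.80 (SD, n = 3) in 23132/87, a log2 change of -1.62, and changed by -0.43 in SW48 (limma adjusted p = 0.049). NUDT21, a subunit of the cleavage factor that acts in NEAT1 3′ end formation, fell by 0.58 in SW48 and changed by -0.07 in 23132/87, where it did not pass the test. Of 12 nuclear speckle protein genes 5 fell in each line and the others did not pass the test. The largest falls were those of the splicing factors SRSF2 (-1.18 and -0.88) and SRSF3 (-1.02 and -0.76).

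**Figure D3:**
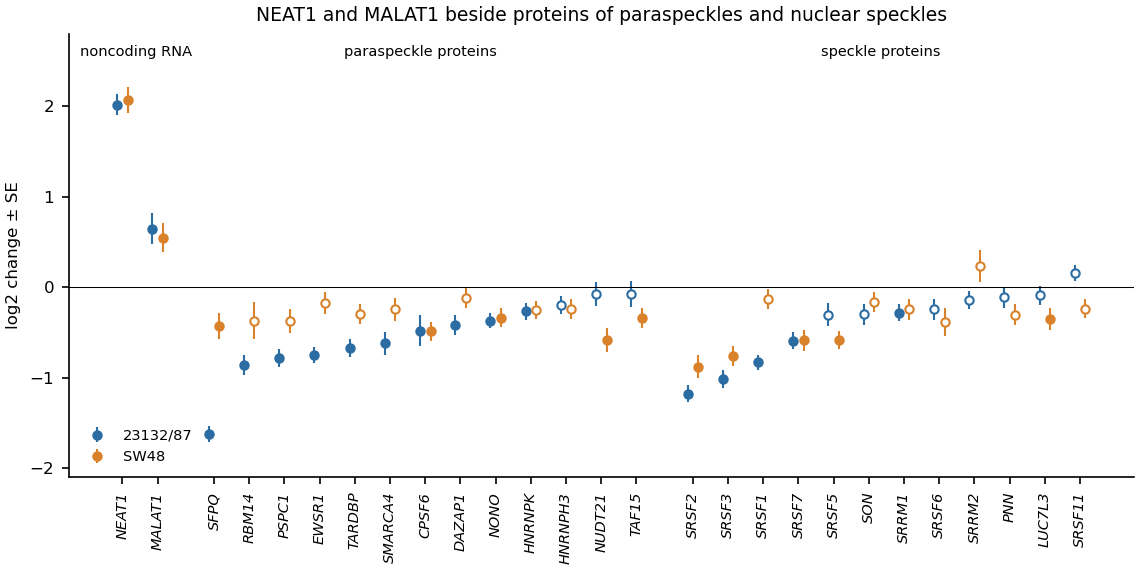
Log2 change ± SE (n = 3 per group) of NEAT1, MALAT1 and genes of paraspeckle and nuclear speckle proteins in 23132/87 (blue) and SW48 (orange); filled points passed the test. NEAT1 lies at 2.02 and 2.07, and no protein gene shown that passed the test lies above 0.

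Genes that work with snoRNAs or share features of their hosts were counted for comparison. Of 16 snoRNP proteins and assembly factors, which bind and stabilise snoRNAs, none rose in either line, and 5 fell in 23132/87 and 4 in SW48, shares not far from the 23.2% and 19.2% of all genes. NHP2, a protein of box H/ACA particles, fell in both (-0.48 and -0.59), RUVBL2 in 23132/87 (-0.43) and SHQ1 in SW48 (-0.48). Among 16 factors of nonsense-mediated decay and the exon junction complex, 5 rose and 4 fell in 23132/87 and 1 rose and 1 fell in SW48. Of all genes, 23.3% rose and 23.2% fell in 23132/87, and 10.1% rose and 19.2% fell in SW48. EIF4A3, the core helicase of the junction complex, fell by 0.56 in 23132/87, where the decay kinase SMG1 rose by 0.56. In SW48 MAGOHB rose by 0.55 and UPF3A fell by 0.35.

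Genes of translation, a class known for the TOP element, were counted against the shares of all genes. Of all genes, 23.3% and 10.1% rose and 23.2% and 19.2% fell in 23132/87 and SW48. The genes were taken by symbol or from a list, and the start of each was not examined for a TOP element. Of 81 cytosolic ribosomal protein genes, 6 rose and 4 fell in 23132/87 (median 0.10) and none rose and 9 fell in SW48 (median -0.19). RPL10 rose by 0.52 and RPS26 fell by 0.94 in 23132/87, and the paralogue genes RPL26L1 (-0.63) and RPL22L1 (-0.55) fell in SW48. Of 13 other translation genes listed as TOP genes, 3 rose and 1 fell in 23132/87 and 1 rose in SW48. The shares that rose were close to those of all genes. TPT1 rose by 0.72 and NAP1L1 fell by 0.57 in 23132/87, and the elongation factor EEF2 rose by 0.36 in SW48. The medians of this list were 0.24 and -0.00.

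Protein-coding genes that hold a snoRNA in their span moved in both directions, with medians near those of all genes. In 23132/87, 43 of 204 rose and 51 fell (median 0.01), and in SW48 20 of 212 rose and 28 fell (median -0.06). The shares of all genes were 23.3% higher and 23.2% lower in 23132/87, and 10.1% higher and 19.2% lower in SW48. HSPA8, a chaperone gene with several intronic snoRNAs, fell from a mean signal of 1183 ± 51.2 to 272.4 ± 29.9 (SD, n = 3) in 23132/87, a log2 change of -2.12. PCNA, the DNA polymerase clamp, fell by 1.73 there. In SW48 the kinase gene AAK1 rose by 1.27 and TMEM107 fell by 1.16. No test was made between the lists.

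The hosts that rose in SW48 were among those that rose in 23132/87, and most hosts had a smaller change in SW48. All 9 hosts that rose in SW48 also rose in 23132/87, where they made up 64.3% of the 14. Across the 22 hosts listed for both lines the changes had a Pearson r of 0.89, and across the 241 other noncoding genes r was 0.39, given as descriptions over genes that share their libraries. The share of all genes that rose in both lines and the r over all genes were not computed, so these values have no background beside them. The SW48 change was below the 23132/87 change for 19 of 22 hosts and 174 of 241 others. It was above the 23132/87 change for 3 hosts and 67 others, and for 4193 of all 10252 genes. The median of that difference was -0.38 for hosts, -0.25 for the others and -0.09 for all 10252 genes in both tables.

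By the line-by-treatment term, 12 members had a higher change in SW48 and 34 a lower one of 263, against 5.34% and 7.43% of all genes. Among the hosts 2 were called, both lower in SW48: SNHG21 (-1.27 ± 0.27, limma adjusted p = 0.0071) and SNHG20 (-0.65 ± 0.20, limma adjusted p = 0.0473). SNHG20 read 13.3, 11.0 and 11.5 against 9.96, 12.7 and 11.4 in SW48, groups that overlapped, and 4.48, 2.95 and 3.48 against 6.71, 5.33 and 5.69 in 23132/87, groups that did not. Its difference was no longer called in 10 of the 12 fits that left out 1 library each. SNHG5 (-0.67, limma adjusted p = 0.0513) and SNHG29 (-0.58, limma adjusted p = 0.0617) missed the threshold, as did GAS5 (-0.59 ± 0.26, limma adjusted p = 0.143).

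**Figure D4:**
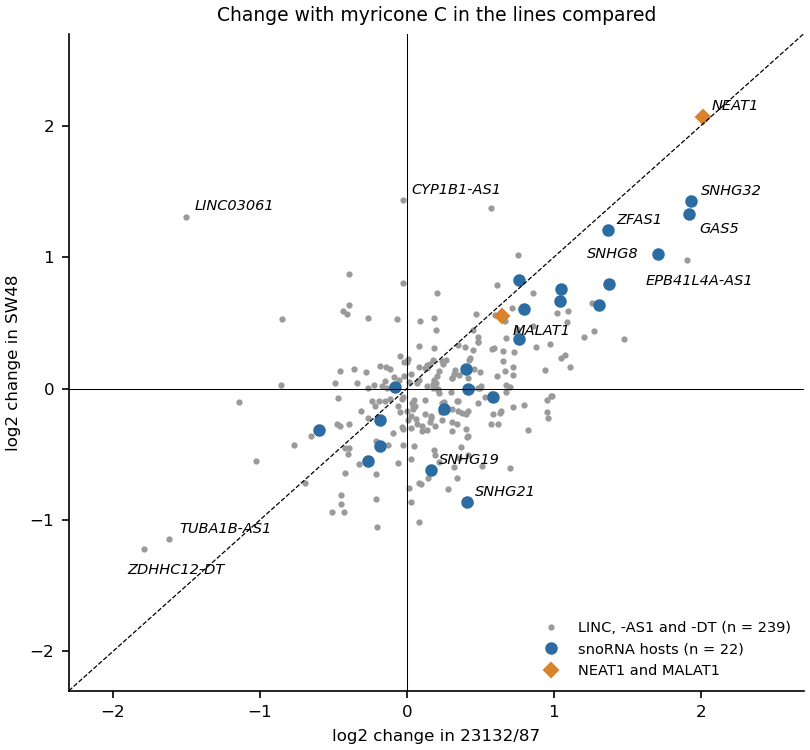
Log2 change with myricone C in 23132/87 (x axis) and SW48 (y axis) of the 263 members listed for both lines; the dashed line marks equal change. Of 22 snoRNA hosts (blue), 19 lie below the dashed line, and NEAT1 lies close to it, at 2.02 and 2.07; LINC03061 is alone at the upper left.

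Among the other noncoding genes, 16 rose in both lines (21.1% of the 76 that rose in 23132/87 and 57.1% of the 28 that rose in SW48) and 8 fell in both (40.0% of 20 and 25.8% of 31). Here too the matching shares of all genes were not counted. The largest shared rise after NEAT1 was that of EPB41L4A-AS1 (chr5:112160526-112164276, + strand), the antisense-named gene that holds SNORA13. In 23132/87 it read 17.2, 16.5 and 12.5 with vehicle and 53.6, 58.5 and 68.9 with myricone C (log2 change 1.91 ± 0.14, limma adjusted p = 7.73e-06), a size near those of GAS5 and SNHG32. In SW48 it read 38.7, 38.4 and 26.9 against 49.8, 61.5 and 103 (0.98 ± 0.23, limma adjusted p = 0.00977), a call lost without vehicle replicate 3 (0.81).

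LINC01133 (chr1:159961218-159984750, + strand), listed in 23132/87 only, was the LINC gene with the largest rise there. Its vehicle libraries read 1.29, 1.31 and 1.62 and its myricone C libraries 7.83, 9.00 and 7.96 (log2 change 1.94 ± 0.13, limma adjusted p = 4.98e-06). LINC02967 followed, from 6.90, 7.58 and 9.56 to 28.8, 24.3 and 21.0 (1.51 ± 0.15). LINC00623 (1.48 ± 0.17) and LINC00174 (1.27 ± 0.13) were the next. Every treated library of LINC01133 and LINC02967 lay above every vehicle library.

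LINC03061 (chr13:109269634-109278512, + strand) was the member whose response differed most between the lines. With vehicle it read 10.7, 12.7 and 12.3 in 23132/87 and with myricone C 4.39, 2.95 and 3.41, a fall of every treated library below every vehicle library (-1.50 ± 0.15, limma adjusted p = 4.18e-05). In SW48 it read 41.0, 38.8 and 53.1 against 86.7, 152 and 101, a rise in every treated library (1.31 ± 0.19, limma adjusted p = 0.000767). The difference of the changes was 2.81 ± 0.26 (limma adjusted p = 6.66e-05). LINC01559, listed in 23132/87 only, fell there from 7.81, 5.70 and 5.27 to 1.26, 2.03 and 2.11 (-1.37 ± 0.18).

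The LINC genes with the largest changes in SW48, beside LINC03061, were LINC00659, LINC02916 and LINC03057. LINC00659 (chr20:62774128-62775412, - strand) read 10.6, 4.81 and 7.94 with vehicle and 20.0, 21.2 and 21.4 with myricone C (1.37 ± 0.21, limma adjusted p = 0.000929), and it rose in 23132/87 too (0.57 ± 0.17, limma adjusted p = 0.0193). LINC02916 fell from 5.83, 6.81 and 4.83 to 3.23, 1.92 and 1.84 (-1.05 ± 0.19). LINC03057 fell from 6.41, 16.7 and 11.0 to 5.18, 4.28 and 4.82 (-1.02 ± 0.25), with a wide spread among its vehicle libraries.

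Antisense and divergent members were set beside the protein-coding gene in their name, since the counting's strand setting is not given in the sources used here and reads of overlapping partners may not be told apart. In 23132/87, 201 such pairs were listed. The member was called in 65 of them and both genes in 37, of which 24 moved in the same direction and 13 in opposite directions. Of all genes, 46.5% were called in 23132/87 and 29.3% in SW48. Where the exons overlap, 18 of 23 pairs with both genes called moved in the same direction; where no exon base is shared, 6 of 12 did. In SW48, of 256 pairs the member was called in 46 and both genes in 13. Of these 13, 11 moved in the same direction: 7 of 9 with overlapping exons and 4 of 4 without a shared exon base. The order of these shares differed between the lines. Matching counts for pairs of unrelated genes were not made, so the shares that moved in the same direction have no background beside them.

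TUBA1B-AS1 (chr12:49127782-49147869, + strand) has exons that share 1309 bases with the tubulin gene TUBA1B. It read 1225, 1222 and 1177 with vehicle and 347, 424 and 410 with myricone C in 23132/87 (log2 change -1.62 ± 0.11, limma adjusted p = 6.63e-06), where TUBA1B changed by -1.71. In SW48 it read 745, 661 and 694 against 346, 292 and 312 (-1.14 ± 0.11, limma adjusted p = 0.000104), and TUBA1B changed by -1.33. The near-equal changes of these overlapping genes cannot be assigned to either strand.

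MUC5B-AS1 (chr11:1242261-1249676, - strand) shares 434 exon bases with the secreted mucin gene MUC5B. It fell in 23132/87 from 115, 135 and 101 to 30.8, 40.2 and 36.3 (-1.68 ± 0.13, limma adjusted p = 1.14e-05), and MUC5B fell by 1.46. ZDHHC12-DT (chr9:128724445-128733194, + strand) shares no exon base with ZDHHC12, a palmitoyltransferase gene whose annotated start lies 318 bases away on the other strand. It read 12.1, 11.3 and 12.1 against 3.89, 1.40 and 3.38 in 23132/87 (-1.79 ± 0.23, limma adjusted p = 0.000233) and 3.99, 10.1 and 6.25 against 2.12, 3.36 and 1.33 in SW48 (-1.22 ± 0.28, limma adjusted p = 0.00856). ZDHHC12 fell with it, by 1.03 and 1.13.

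Other pairs came apart. CYP1B1-AS1 (chr2:38073447-38231651, + strand) rose in SW48 from 4.10, 3.85 and 4.48 to 11.6, 18.9 and 9.59 (1.43 ± 0.21, limma adjusted p = 0.000681) and did not pass the test in 23132/87 (-0.03 ± 0.18), a difference of 1.46 ± 0.30 (limma adjusted p = 0.0058). Its partner CYP1B1, a dioxin-responsive oxidase, is listed in 23132/87 only and rose there by 0.73. The pair thus differed in 23132/87 and cannot be compared in SW48. NHSL1-AS1 rose in SW48 from 2.61, 2.68 and 3.51 to 7.87, 7.96 and 10.7 (1.32 ± 0.16), while NHSL1 changed by 0.31 and did not pass the test.

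SPINT1-AS1 fell in SW48 from 7.64, 8.56 and 7.21 to 4.20, 1.48 and 4.86 (limma adjusted p = 0.0129), while the protease inhibitor gene SPINT1 changed by 0.13 and was not called. UNC5B-AS1 rose in SW48 from 8.93, 5.85 and 6.38 to 9.91, 20.5 and 31.1 (1.30 ± 0.31, limma adjusted p = 0.00973), and the netrin receptor gene UNC5B rose with it by 1.03. Its replicate 1 again lay closest to the vehicle libraries.

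**Figure D5:**
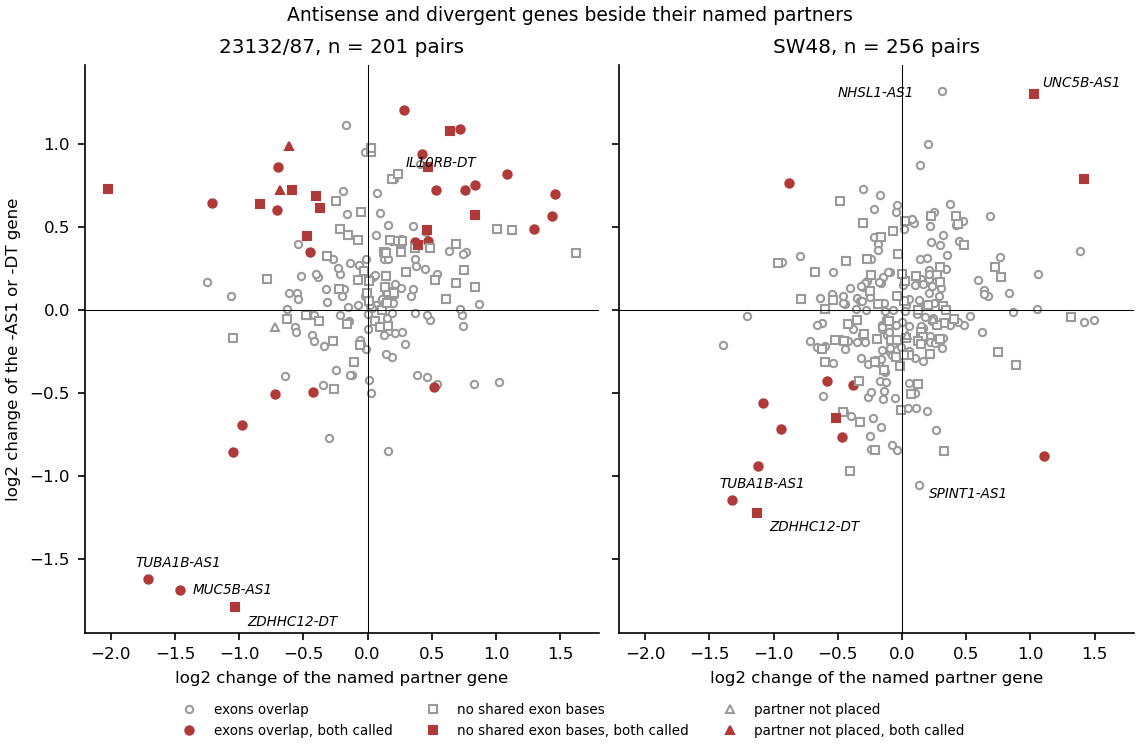
Log2 change of each -AS1 or -DT gene (y axis) against that of the protein-coding gene in its name (x axis), with circles where annotated exons overlap, squares where they share no base and triangles where the partner is not placed; red marks pairs in which both genes passed the test. Of the 37 red pairs in 23132/87, 24 lie where both genes moved the same way, TUBA1B-AS1, MUC5B-AS1 and ZDHHC12-DT farthest down.

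Some antisense and divergent members differed between the lines in their response. DICER1-AS1 rose in 23132/87 from 2.50, 2.39 and 1.94 to 4.08, 4.26 and 4.66 (0.70 ± 0.13) and read 4.12, 5.44 and 4.66 against 2.64, 1.79 and 4.23 in SW48 (-0.60 ± 0.21, limma adjusted p = 0.0533). DICER1, the miRNA-processing nuclease gene, changed by 0.07 and 0.19 and was not called. IL10RB-DT, which shares no exon base with IL10RB, rose by 0.82 ± 0.16 in 23132/87 and changed by -0.31 ± 0.14 in SW48. The partner, a cytokine receptor subunit gene, changed by 0.24 without a call and fell by 0.60.

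VPS9D1-AS1 rose in SW48, from 13.0, 7.50 and 9.30 to 18.5, 18.3 and 19.1 (0.87 ± 0.17), and did not pass the test in 23132/87 (-0.39 ± 0.17). VPS9D1 was not called in either line (0.39 and 0.14). KXD1-AS1 fell in 23132/87 (-0.85 ± 0.28, limma adjusted p = 0.0295), a call lost without vehicle replicate 1 (-0.66), vehicle replicate 2 (-0.70) or myricone C replicate 2 (-0.64). It did not pass the test in SW48 (0.53 ± 0.25), and KXD1, a lysosome-positioning gene, was not called in either line (0.16 and 0.09).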

How the data were processed

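For each line the authors deposited 1 table of gene-level signal. Its unit, the counter and strand setting behind it and the annotation were not given in the sources used here. A stranded mRNA kit was used, per the labels' protocols; FastQC, STAR and GRCh38 were used, per the submitters' processing notes. Read depth is unknown, so no counting interval is given.

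Values plus 1 were log2 transformed. The limma package (3.58.1, R 4.3.3) was then fitted to all genes of a line with a mean of at least 1, with a mean-variance trend, no covariate and Benjamini-Hochberg adjustment (threshold 0.05). Lines were compared by the line-by-treatment interaction over all 12 libraries and the 10252 Ensembl identifiers in both tables; levels of the separately made tables were not tested against each other. The fit was tested on simulated data. The labels call the replicates biological; p-values measure the spread between these 3 libraries per group.

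Members and lists were chosen with earlier results of these data known. All hosts, NEAT1 and MALAT1 were named, with the 5 other members of largest rise and fall in each line, the 5 of largest difference in each direction, their named partners and the 2 genes of each list with the largest change; 1 gene this rule names is not reported here. Positions are from GENCODE 29 (GRCh38), and start windows from RefSeq (GRCh38.p14). Alternatives covered the pseudocount, filters on low values, scaling, the trend, a replicate block, a joint fit and leaving out each library.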

Additional observations from a re-analysis of the deposited data

Results flagged for a closer look

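The line-by-treatment term of limma called the following named members, given here as log2 change in SW48 less that in 23132/87. Lower in SW48 were DICER1-AS1 (-1.31), LINC02980 (-1.30), SNHG21 (-1.27), ZEB1-AS1 (-1.18), IL10RB-DT (-1.13), LINC00623 (-1.10), LINC00174 (-0.83) and SNHG20 (-0.65). Higher in SW48 were LINC03061 (2.81), CYP1B1-AS1 (1.46), KXD1-AS1 (1.38), VPS9D1-AS1 (1.26), TSPOAP1-AS1 (1.04) and TUBA1B-AS1 (0.48). LINC03061 fell in 23132/87 and rose in SW48, and TUBA1B-AS1 fell in both lines, by less in SW48. TSPOAP1-AS1 fell in 23132/87 (-1.14 ± 0.18, limma adjusted p = 0.000609) and was not called in SW48 (-0.10). LINC02980 fell in SW48 (-0.87 ± 0.17, limma adjusted p = 0.00356) and was not called in 23132/87 (0.43). ZEB1-AS1 rose in 23132/87 (0.96 ± 0.16, limma adjusted p = 0.000975) and was not called in SW48 (-0.22). Of the 12 fits that left out 1 library each, the call was lost in 11 for TUBA1B-AS1, 10 for SNHG20 and 8 for KXD1-AS1. For LINC00623 it was lost without 23132/87 vehicle replicate 2 (-0.95) or SW48 vehicle replicate 2 (-0.92). The other 10 members kept their call in all 12 of these fits.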

How the results depend on the processing

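No called change of a named member turned its sign under any alternative run. Requiring a signal of at least 10 in at least 3 libraries removes most members and left, in 23132/87, 0 hosts lower and 22 other noncoding genes higher and 9 lower, and in SW48 1 host lower and 13 others higher and 8 lower; for the difference between lines it left 7 members above and 8 below. Quantile normalization left 22 members below. The median of the other noncoding genes in SW48 turned from -0.03 to 0.03 with quantile normalization, 0.02 with median centring and 0.03 after rescaling without mitochondrial pseudogenes, 7SL and small nuclear RNA genes. Among all genes the share of calls that were higher moved from 34.6% in SW48 to 46.2% with quantile normalization and 46.4% with rescaling, and for the difference from 41.8% to 54.5% with quantile normalization and 54.2% with median centring.

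Leaving out each library in turn gave, in 23132/87, 3959 to 4888 genes called, 13 to 15 hosts higher, 1 to 2 lower, 73 to 91 other members higher and 19 to 25 lower. In SW48 it gave 2199 to 3656 genes, 7 to 11 hosts higher, 2 to 3 lower, 20 to 44 others higher and 28 to 51 lower. Counts of SW48 fell by more than 1.5 times for all genes without myricone C replicate 2 (2199), for others higher without vehicle replicate 3 (20), myricone C replicate 2 (22) or myricone C replicate 3 (20), and for others lower without vehicle replicate 3 (28) or myricone C replicate 2 (29). SNHG9 (-0.46) joined the lower hosts of 23132/87 without vehicle replicate 3. For the difference it gave 831 to 1413 genes, 6 to 12 members above and 18 to 38 below. The largest drops were without SW48 vehicle replicate 2 (831 genes, 7 above, 18 below) and without 23132/87 myricone C replicate 2 (6 above); 7 were above without 23132/87 vehicle replicate 2, 23132/87 myricone C replicate 3 or SW48 myricone C replicate 3.

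Same-numbered libraries did not deviate together (correlations from -0.27 to 0.11 in 23132/87 and from -0.18 to -0.07 in SW48), so the replicate number was not taken as a pairing. By the numbers in the column headers SW48 has 2 shared pairs, with correlations of 0.15 and 0.27, and no label says that these numbers mark a shared batch or day. A replicate block left 770 genes called for the difference, with 18 members below, and no call for SNHG17 or MALAT1 in SW48. A replicate block that took SW48 numbers from the column headers left 7 members above. The cause of these changes was not tested. With 3 libraries per group and unknown depth, small changes of low RNAs were not detectable.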
